A study of Mus musculus with 2 samples.

Results

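The Bcl2 family and 1 inhibitor of apoptosis, which together set whether a cell lives or dies, were followed across the dendritic cells (DCs) of skin-draining lymph nodes. They were 10 of the 18049 genes listed in both expression tables and were taken by name, as 9 members of the Bcl2 family (*Bcl2*, *Bcl2l1*, *Bcl2l11*, *Mcl1*, *Bcl2a1a*, *Bcl2a1b*, *Bcl2a1d*, *Bax* and *Bid*) and *Birc3*, and all 10 were present. The study asked how DCs carrying CD301b, a lectin encoded by *Mgl2*, steer helper T cells toward the type 2 fate, and it profiled sorted MHCIIhi CD11c+ B220- cells by CITEseq, in which the mRNA of single cells is counted together with antibody tags. One library came from naive (unimmunized) mice and 1 from mice immunized with ovalbumin (OVA) and the protease allergen papain in the footpads 1 day earlier, with young adult C57BL/6N mice of both sexes as the stock. The authors grouped the cells by their antibody tags into Langerhans cells (LCs), type 1 conventional DCs (cDC1s), and CD301bhi, CD301bint and CD301blo type 2 conventional DCs (cDC2s), and these 5 classes were used as deposited. The methods describe pooled skin-draining nodes for the naive library and popliteal nodes for the papain library, whereas both labels name popliteal nodes in the protocol, so node site and immunization cannot be told apart.

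Cells are held back from apoptosis by the survival members of the family, BCL-2, BCL-XL (encoded by *Bcl2l1*), MCL-1 and BCL2A1 (also called A1), which bind and hold the killer members. BH3-only proteins such as BIM (*Bcl2l11*) and BID carry stress signals to them, and the effectors BAX and BAK form pores in the outer mitochondrial membrane that release cytochrome c and start the caspases. In DCs this balance is known to limit the life span of the cells after activation, and BIM and BCL-2 are known regulators of DC turnover. cIAP2, the product of *Birc3*, is no Bcl2 family member. It is a ubiquitin ligase that acts in tumour necrosis factor receptor and CD40 signalling to NF-kB and blocks caspase activation.

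Mice carry several near-identical copies of the A1 gene on chromosome 9, and the 3 copies listed among the members are shown first. Only upstream bases are given. The transcribed sequence, which bears on how far reads of the copies can be told apart, was not compared. The 250 bases upstream of each annotated start (RefSeq, GRCm38.p6), 5′ to 3′ on the strand of the gene, are given with a stretch of 84 bases common to the 3 genes in capitals.
Bcl2a1a, chr9:88956670-88956919, plus strand: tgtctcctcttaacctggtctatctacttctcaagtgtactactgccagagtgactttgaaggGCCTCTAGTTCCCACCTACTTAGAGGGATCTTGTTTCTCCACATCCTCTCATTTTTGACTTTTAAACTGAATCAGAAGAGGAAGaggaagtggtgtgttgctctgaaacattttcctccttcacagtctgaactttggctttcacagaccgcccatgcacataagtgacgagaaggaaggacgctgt
Bcl2a1b, chr9:89199023-89199272, plus strand: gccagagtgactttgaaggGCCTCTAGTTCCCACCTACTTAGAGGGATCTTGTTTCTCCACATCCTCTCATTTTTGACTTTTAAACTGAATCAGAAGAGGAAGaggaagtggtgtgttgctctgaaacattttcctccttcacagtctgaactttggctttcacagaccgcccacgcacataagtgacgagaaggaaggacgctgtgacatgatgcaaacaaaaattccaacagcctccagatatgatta
Bcl2a1d, chr9:88731851-88732100, minus strand: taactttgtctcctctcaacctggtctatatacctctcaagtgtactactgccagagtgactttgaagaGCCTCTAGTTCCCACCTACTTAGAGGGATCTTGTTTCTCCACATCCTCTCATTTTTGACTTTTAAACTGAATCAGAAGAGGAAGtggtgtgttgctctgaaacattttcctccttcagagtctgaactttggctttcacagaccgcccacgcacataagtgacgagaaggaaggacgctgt

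The common stretch stood at -187 to -104 from the start in *Bcl2a1a*, at -231 to -148 in *Bcl2a1b* and at -181 to -98 in *Bcl2a1d*. Aligned upstream bases were identical at 205 of 206 positions between *Bcl2a1a* and *Bcl2a1b* (99.5%), at 238 of 244 between *Bcl2a1a* and *Bcl2a1d* (97.5%) and at 198 of 200 between *Bcl2a1b* and *Bcl2a1d* (99.0%). A search of both strands used TGANTCA, a pattern that takes any middle base and reads alike on either strand. It is looser than the letters bound by AP-1, which have C or G in the middle. The match found inside the common stretch in all 3 genes was TGAATCA, with A there. GAGGAAGT, a core bound by the myeloid factor PU.1, was also found in all 3, and it overlaps the end of the stretch. Of 32851 upstream windows of the same length, 6.75% held the looser pattern TGANTCA and 2.44% the PU.1 core. The NF-kB consensus, present in 3.90% of windows, was found among the members upstream of 1 of the 3 annotated *Bcl2l1* starts, and TATAAA (12.4% of windows) in none of the 13 windows of the members. These matches describe the letters and were not tested as binding sites.

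The naive library held 3471 cells and the papain library 7596, with medians of 13764 and 14738 unique molecular identifiers (UMIs, 1 per captured mRNA molecule) per cell, and 3042 and 7306 cells had a class. The smallest groups were 235 papain cDC1s and 440 naive LCs. Only 2 cell barcodes occurred in both libraries. Levels are UMIs of a gene summed over the cells of a class, per 1000000 of their UMIs (CPM), and their 95% intervals are exact Poisson intervals. With 1 library per condition there is no replicate and no test between conditions, and all intervals cover counting error only. Fewer cells of a kind and less RNA per cell cannot be told apart from such sums. *Epcam* stood at 102 and 156 CPM in naive and papain LCs and at 29.2 CPM or less in the other classes, *Xcr1* at 16.9 and 9.44 CPM in cDC1s and at 6.94 CPM or less elsewhere, and *Sirpa* at 52.4 to 113 CPM in cDC2s and at 35.9 CPM or less elsewhere. Other cDC1 markers were less selective, as naive *Wdfy4* stood at 11.5 CPM in cDC1s but at 42.6 CPM in CD301blo cDC2s, and naive *Cadm1* at 27.5 CPM in cDC1s and 23.1 CPM in LCs. Of the cDC2 markers, *Irf4* stood at 47.6 to 78.7 CPM in cDC2s but also at 41.4 and 47.4 CPM in naive and papain LCs. *Cd209a* stood at 32.2 to 47.8 CPM in naive cDC2s but at 0.068 to 1.38 CPM in papain cDC2s. *Mgl2* itself was measured at 15.2 to 59.1 CPM in naive cDC2s but at 1.21 CPM or less in every papain class, so that CD301bhi names a protein level there. The 12 immediate early and heat shock genes of a dissociation list were lower in the papain library for 10 to 12 genes in each class, with class medians of the log2 ratio from -0.86 to -0.43, and their part in the results below was not tested.

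*Bcl2l1*, the gene of BCL-XL on chromosome 2 (152758732 to 152833803), had the largest papain to naive ratio of the members in all 3 cDC2 classes. In the naive library its level was 50.8 CPM in CD301bhi (95% interval 46.7 to 55.1), 56.6 CPM in CD301bint (52.1 to 61.4), 49.5 CPM in CD301blo cDC2s (45.1 to 54.3), 80.4 CPM in cDC1s (74.8 to 86.3) and 94.4 CPM in LCs (86.4 to 103). In the papain library it was 124 CPM in CD301bhi (121 to 127), 125 CPM in CD301bint (121 to 129), 88.4 CPM in CD301blo cDC2s (84.1 to 92.9), 82.7 CPM in cDC1s (72.8 to 93.5) and 159 CPM in LCs (154 to 165). Papain and naive intervals were apart in the 3 cDC2 classes and in LCs, and overlapped in cDC1s. The log2 ratio of papain over naive was 1.28 (interval 1.16 to 1.41) in CD301bhi, 1.14 (1.02 to 1.27) in CD301bint, 0.84 (0.69 to 0.99) in CD301blo cDC2s and 0.76 (0.62 to 0.90) in LCs, against 0.04 (-0.17 to 0.25) in cDC1s. The order of the classes therefore differed between libraries. Naive cDC1s stood above all naive cDC2 classes, whereas papain cDC1s stood lowest with an interval overlapping that of CD301blo cDC2s, and LCs were highest in both libraries.

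The share of cells with a *Bcl2l1* UMI was read as well. Cells were thinned to 8392 UMIs to remove differences in depth, and shallower cells were left out. After thinning, 23.5% of naive and 42.3% of papain CD301bhi cDC2s held 1 UMI or more (33.1% and 55.1% without thinning). In LCs the thinned shares were 33.1% and 51.5%, and in cDC1s 31.2% and 29.5%. The LC shares leave out unequal parts of the class, 127 of 440 naive and 110 of 881 papain LCs.

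The A1 genes also had higher levels in the papain library in every class. *Bcl2a1d* stood at 1438, 1291 and 1201 CPM in naive CD301bhi, CD301bint and CD301blo cDC2s, at 1259 CPM in cDC1s and at 1552 CPM in LCs. In the papain library it stood at 2085, 2037 and 1909 CPM in the same cDC2 classes, at 1684 CPM in cDC1s and at 2137 CPM in LCs. Each papain value of *Bcl2a1d* was above all 5 naive values. *Bcl2a1b* stood at 825, 723 and 683 CPM in naive CD301bhi, CD301bint and CD301blo cDC2s, at 660 CPM in cDC1s and at 912 CPM in LCs. Its papain levels were 1222, 1220, 1191, 1052 and 1280 CPM in the same order of classes, again all above the 5 naive values. *Bcl2a1a*, on chromosome 9 at 88956920 to 88962416, ranged from 53.1 CPM (naive CD301blo cDC2s) to 72.1 CPM (naive CD301bhi cDC2s) and from 83.0 CPM (papain cDC1s) to 118 CPM (papain LCs).

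Because reads of such copies may be split or lost in counting, the 3 genes were also summed. The sum gave log2 ratios of papain over naive of 0.55 in CD301bhi (interval 0.53 to 0.57), 0.69 in CD301bint (0.67 to 0.71), 0.72 in CD301blo cDC2s (0.69 to 0.74), 0.51 in cDC1s (0.47 to 0.55) and 0.48 in LCs (0.46 to 0.51). Of the UMIs assigned to the 3 copies, *Bcl2a1d* took 59.8 to 63.6%, *Bcl2a1b* 33.3 to 37.4% and *Bcl2a1a* 2.63 to 3.34% over the 10 groups of class and library. The split therefore differed little between classes and libraries, while the sum differed by 1.40 to 1.65-fold between libraries. Another copy, *Bcl2a1c*, was at 0.948 to 3.57 CPM.

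*Mcl1*, whose short-lived protein is a survival factor of many immune cells, was higher in the papain library by a smaller amount in each class. Its naive levels were 864, 736 and 627 CPM in CD301bhi, CD301bint and CD301blo cDC2s, 658 CPM in cDC1s and 652 CPM in LCs. Its papain levels were 1040, 941, 856, 868 and 835 CPM in that order. The log2 ratios ran from 0.27 (0.24 to 0.30) in CD301bhi cDC2s to 0.45 (0.41 to 0.49) in CD301blo cDC2s, all below the 1.5-fold used as a mark here, and CD301bhi cDC2s had the highest level in both libraries.

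*Bcl2*, the founding survival gene, was measured at low levels. In the naive library it stood at 2.28 CPM in CD301bhi (1.49 to 3.34), 3.29 CPM in CD301bint (2.28 to 4.60), 13.8 CPM in CD301blo cDC2s (11.5 to 16.4), 5.06 CPM in cDC1s (3.73 to 6.70) and 1.69 CPM in LCs (0.774 to 3.21). In the papain library it stood at 0.989, 1.5 and 1.94 CPM in the 3 cDC2 classes, at 1.63 CPM in cDC1s and at 0.654 CPM in LCs. Naive CD301blo cDC2s thus stood apart from the other 9 groups. Of their 127 *Bcl2* UMIs, 85 lay in 34 cells of a single mRNA cluster of the authors (naive cluster 7, 162 CPM, 129 to 200), and the other 624 CD301blo cDC2s were at 4.83 CPM (3.48 to 6.52). Naive cluster 7 held 50 cDC2s in all, of which 28 carried a UMI of the T cell genes *Cd3e* or *Trac*. Its summed levels were 799 CPM for 5 T cell genes, 247 CPM for 5 B cell genes and 165 CPM for 3 natural killer cell genes, against at most 51.5, 72.4 and 1.98 CPM in the other 6 naive clusters.

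Over all naive cells with a class, *Bcl2* stood at 25.4 CPM in the 182 cells with a *Cd3e* or *Trac* UMI (20.3 to 31.5) and at 3.79 CPM in the 2860 cells without (3.22 to 4.42). The summed T cell genes ranged from 10.7 CPM in naive CD301bhi cDC2s to 192 CPM in naive cDC1s, and from 9.55 to 25.4 CPM over the papain classes. The *Bcl2* ratio of papain over naive, -2.83 (interval -3.41 to -2.28, log2) in CD301blo cDC2s, went with lower sums of these markers there, 52.1 CPM (naive) and 14.1 CPM (papain) for the T cell genes and 63.3 and 28.8 CPM for the B cell genes. Once cells with a *Cd3e* or *Trac* UMI were set aside, the CD301blo values were 9.76 CPM (naive) and 1.44 CPM (papain), and with B cell marker UMIs set aside as well they were 4.82 CPM (3.20 to 6.97) and 0.979 CPM (0.535 to 1.64). The gap between the libraries was thus smaller in CPM but present in the sum over the remaining CD301blo cells. It was uneven over the mRNA clusters. With no cells set aside, naive CD301blo cells held *Bcl2* at 14.6 CPM in cluster 5 and at 0 to 2.26 CPM in clusters 1 to 4. Papain CD301blo cells held it at 6.58 CPM in papain cluster 9 and at 1.42 CPM outside it. Naive CD301blo cells of clusters 1, 2 and 4 stood below that 1.42 CPM, at 0.737, 0 and 0.430 CPM. Those of clusters 3 and 5 stood above it. The part of naive cluster 5 in the gap was not tested. In cDC1s *Bcl2* stood at 5.06 CPM (naive) and 1.63 CPM (papain) with no cells set aside. With both kinds of cells set aside, *Bcl2* stood there at 0.931 CPM (naive, 0.342 to 2.03) and 1.82 CPM (papain, 0.496 to 4.66). These intervals overlap and are too wide to show either a gap or its absence. In the other naive classes the same step left 1.24 CPM in CD301bhi, 1.85 CPM in CD301bint cDC2s and 0.782 CPM in LCs. Thinned to 8392 UMIs, 0.462 to 4.50% of cells held a *Bcl2* UMI, beside 0.168 to 0.850% for *Cd79a*, a B cell gene that DCs lack. For the T cell gene *Cd3e* the range was 0.361 to 8.63%. Its share was above that of *Bcl2* in naive cDC1s (8.63% and 2.37%), papain cDC1s (1.61% and 1.29%) and papain LCs (0.581% and 0.462%). In naive CD301bint cDC2s it was near that of *Bcl2* (1.83% and 1.97%).

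Among the BH3-only genes, *Bcl2l11* (BIM) had ratios on both sides of 0, depending on the class. Its naive level was 35.5 CPM in CD301bhi (32.2 to 39.2), 35.2 CPM in CD301bint (31.7 to 39.0), 41.6 CPM in CD301blo cDC2s (37.6 to 46.0), 31.9 CPM in cDC1s (28.4 to 35.7) and 21.4 CPM in LCs (17.7 to 25.8). Its papain level was 35.5 CPM in CD301bhi (33.9 to 37.2), 27.3 CPM in CD301bint (25.4 to 29.2), 34.5 CPM in CD301blo cDC2s (31.8 to 37.3), 51.4 CPM in cDC1s (43.7 to 60.1) and 23.9 CPM in LCs (21.7 to 26.2). Papain cDC1s, with the highest level of the 10 groups, had an interval apart from that of naive cDC1s (log2 ratio 0.69, 0.40 to 0.97), the ratio was below 0 in CD301bint cDC2s (-0.37, -0.55 to -0.19) and in CD301blo cDC2s (-0.27, -0.46 to -0.09), and LCs were lowest in both libraries. That cDC1 value rests on 158 UMIs from 235 cells. Naive cells without a class that carried a *Cd3e* or *Trac* UMI held *Bcl2l11* at 123 CPM. Naive cells with a class held it at 45.1 CPM where they carried such a UMI and at 33.5 CPM where they did not. The part of T cell transcripts in the cDC2 ratios was not tested. *Bid*, whose protein is cut by caspase-8 to link death receptors to mitochondria, stood at 2.40 to 6.53 CPM in the 10 groups, below the 10 CPM mark, and cDC1s were highest in both libraries with intervals overlapping their neighbour in the order.

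*Bax*, the pore-forming effector on chromosome 7 (45461695 to 45466903), differed in direction between cDC2s and LCs. Naive levels were 192 CPM in CD301bhi, 195 CPM in CD301bint, 164 CPM in CD301blo cDC2s, 181 CPM in cDC1s and 283 CPM in LCs. Papain levels were 254, 241, 205, 170 and 230 CPM in the same order. The log2 ratio of papain over naive was 0.40 (0.33 to 0.47), 0.31 (0.24 to 0.38) and 0.32 (0.23 to 0.41) in the 3 cDC2 classes, -0.09 (-0.24 to 0.05) in cDC1s and -0.30 (-0.38 to -0.21) in LCs. LCs thus stood highest among naive classes and below CD301bhi cDC2s among papain classes.

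*Birc3* was the member of 10 CPM or more with a ratio below 0 in all 5 classes. Its naive levels were 377 CPM in CD301bhi, 331 CPM in CD301bint, 250 CPM in CD301blo cDC2s, 262 CPM in cDC1s and 250 CPM in LCs. Its papain levels were 292, 250, 214, 254 and 205 CPM. The log2 ratio ran from -0.40 (-0.46 to -0.35) in CD301bint cDC2s to -0.04 (-0.16 to 0.07) in cDC1s, whose interval includes 0. CD301bhi cDC2s held the highest *Birc3* level in both libraries.

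**Figure D1:**
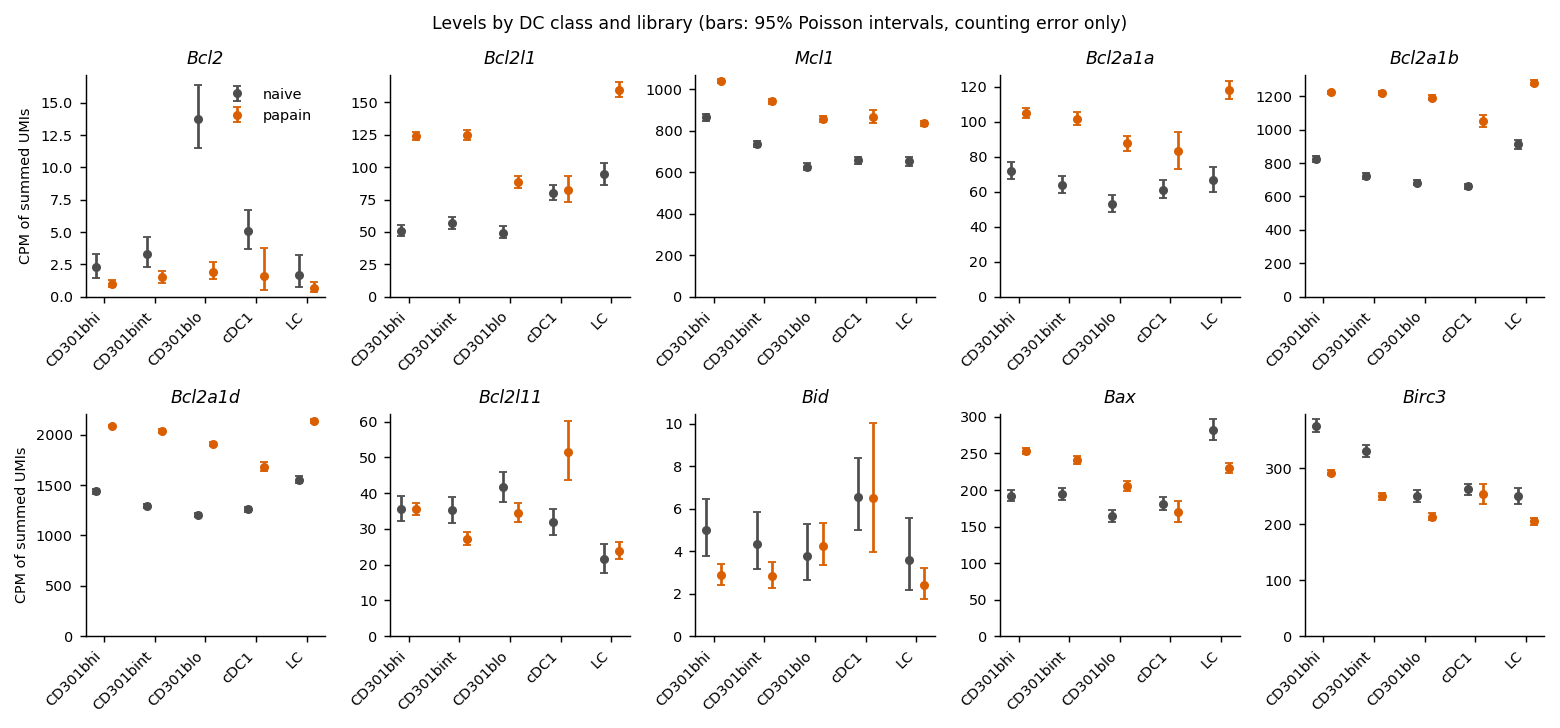
Levels of the 10 members (CPM of summed UMIs, linear axes from 0) in the 5 DC classes of the naive (grey) and papain (orange) library, with 95% Poisson intervals that cover counting error only. *Bcl2l1* differs between libraries in cDC2s and LCs and not in cDC1s, and the A1 genes and *Mcl1* stand higher in the papain library in every class.

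A gene was counted as higher or lower where its level reached 10 CPM in the higher group and the levels differed by 1.5-fold or more. Of the 10 members, 8 reached 10 CPM in 4 classes and 9 in CD301blo cDC2s, where *Bcl2* passed through the naive group alone, and *Bid* reached it in no class. In CD301bhi cDC2s 1 of 8 members was higher (*Bcl2l1*) and none lower, where 10.2% of 7226 genes were higher and 8.39% lower. In CD301bint cDC2s 4 of 8 were higher (*Bcl2l1* and the 3 A1 genes) and none lower, against 10.7% higher and 10.5% lower among 7359 genes. In CD301blo cDC2s the same 4 of 9 were higher and *Bcl2* was lower, against 11% and 14.2% of 7575 genes. In cDC1s 2 of 8 were higher (*Bcl2l11* and *Bcl2a1b*) and none lower, against 10.3% and 12.6% of 7238 genes. In LCs 2 of 8 were higher (*Bcl2l1* and *Bcl2a1a*) and none lower, against 14.4% and 9.21% of 7582 genes.

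The counts for the A1 genes lie close to the mark: in CD301bhi cDC2s the 3 genes had log2 ratios of 0.54, 0.57 and 0.54, just under the 0.58 of 1.5-fold, and 3 near-identical copies are not 3 independent genes. The median log2 ratio of the members of 10 CPM or more was 0.41 to 0.51 over the classes, beside 0.01 to 0.09 over all genes tested. *Bcl2l1* lay above 99.0% of the genes tested in CD301bhi cDC2s and above 98.5% in CD301bint cDC2s. Scaling to the median gene left the member counts as they were, but moved the share of higher among all counted genes in CD301bhi cDC2s from 54.9% to 39.7%.

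**Figure D2:**
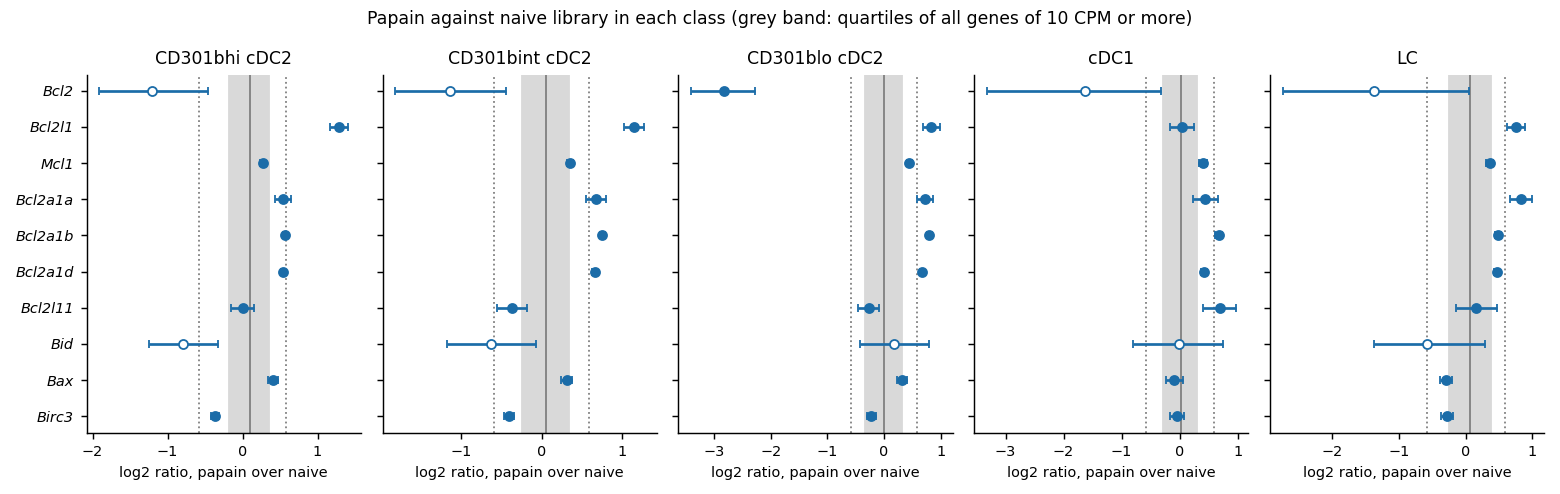
Log2 ratio of papain over naive for each member in the 5 classes, with exact 95% intervals of counting error. Filled points reached 10 CPM in the higher group and open points did not, the grey band spans the quartiles of all genes of 10 CPM or more, the grey line is their median, dotted lines mark 1.5-fold, and each panel has its own axis. *Bcl2l1* lies right of the band in cDC2s and LCs and inside it in cDC1s.

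Classes were then compared within each library, and a member was counted where it differed by 1.5-fold or more in the same direction in both libraries. No member of 10 CPM or more did so in any of 3 comparisons. For CD301bhi against CD301blo cDC2s, 2.16% of 6884 genes were higher and 2.21% lower. For cDC1s against all cDC2s these shares were 5.4% and 9.31% of 6949 genes, and for LCs against all cDC2s 3.81% and 4.46% of 7060 genes. *Bcl2*, under 10 CPM in the papain cells, was left out of this count.

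Differences of 1 direction in both libraries that fell short of 1.5-fold in 1 library or in both were measured. *Birc3* was higher in CD301bhi than in CD301blo cDC2s, with a log2 ratio of 0.59 (0.52 to 0.66) among naive cells and of 0.45 (0.40 to 0.50) among papain cells. *Mcl1* was higher there as well (0.46, 0.42 to 0.51, and 0.28, 0.25 to 0.31), as was *Bax* (0.23, 0.13 to 0.32, and 0.31, 0.25 to 0.36). LCs held less *Bcl2l11* than cDC2s in both libraries (-0.80, -1.09 to -0.52, and -0.46, -0.61 to -0.32) and more *Bcl2l1* (0.85, 0.70 to 1.00, and 0.44, 0.38 to 0.50). cDC1s against cDC2s changed sign between the libraries for *Bcl2l1*, from 0.62 (0.49 to 0.74) to -0.51 (-0.69 to -0.33), and for *Bcl2l11*, from -0.22 (-0.41 to -0.04) to 0.65 (0.41 to 0.88).

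The authors also divided cDC2s by their mRNA into 7 naive and 9 papain clusters, numbered separately, and the members varied more among these than among the antibody classes. Since the clusters were made from the same mRNA, their levels are a description. *Bcl2l1* ranged 4.21-fold in naive cDC2s, from 18.0 CPM (14.4 to 22.2) in cluster 5 to 75.8 CPM (70.6 to 81.2) in cluster 1, and 6.46-fold in papain cDC2s, from 24.8 CPM (19.2 to 31.5) in cluster 9 to 160 CPM (155 to 166) in cluster 2. *Bcl2a1d* ranged 2.87-fold and 2.44-fold, with 624 CPM in naive cluster 3 and 2498 CPM in papain cluster 1 at the ends. *Bcl2l11* ranged from 24.1 to 68.3 CPM over naive and from 11.4 to 52.8 CPM over papain clusters.

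Naive cluster 5 (246 cells) combined the lowest *Bcl2l1* and *Birc3* levels of the naive clusters (18.0 and 184 CPM) with 12.3 CPM of *Bcl2* (9.37 to 15.8) and 59.1 CPM of *Bcl2l11* (52.5 to 66.4). It also had the lowest sum of the migration genes *Ccr7*, *Fscn1* and *Ccl22*, 2063 CPM against 4866 CPM or more in the other naive clusters, and 253 CPM of 4 macrophage or monocyte genes against at most 37.5 CPM. Its dissociation genes summed to 8103 CPM, against 5612 CPM or less in the other naive clusters, and its B cell genes to 72.4 CPM, against 247 CPM in cluster 7 and 23.5 CPM or less elsewhere, and their part in these levels was not tested. *Mcl1*, *Birc3* and *Bcl2a1a* were all highest in cluster 6 of the naive library (1076, 524 and 254 CPM, 55 cells). In the papain library *Birc3* and *Bcl2a1a* were highest in cluster 8 (462 and 170 CPM, 316 cells), which held 1099 CPM of *Mcl1*. Papain *Mcl1* was highest in cluster 2 (1152 CPM). Naive cluster 6 and papain cluster 8 were shallow, with medians of 5929 and 7249 UMIs per cell.

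**Figure D3:**
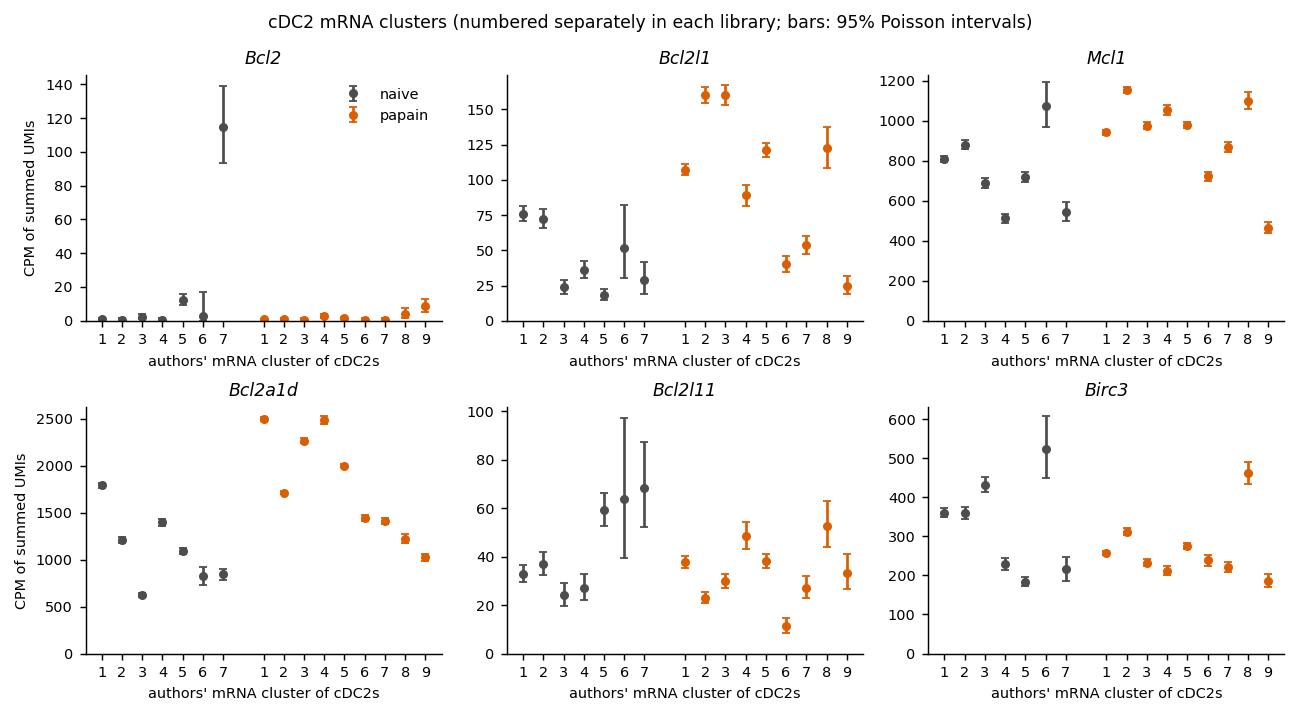
Levels of 6 members (CPM of summed UMIs, linear axes from 0) in the authors' mRNA clusters of cDC2s, with clusters 1 to 7 of the naive library in grey and clusters 1 to 9 of the papain library in orange, each numbered on its own, and 95% Poisson intervals. *Bcl2* is at 114.6 CPM in naive cluster 7 and at 12.3 CPM or less elsewhere, and *Bcl2l1* spans 24.8 to 160 CPM over papain clusters.

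CD301bhi and CD301blo cDC2s of the same cluster could be compared in 5 naive and 9 papain clusters with 20 or more cells of each. *Birc3* was higher in CD301bhi cells in 5 of 5 naive and 9 of 9 papain clusters, with intervals above 0 in 5 and 8, and medians of the log2 ratio of 0.38 and 0.34. *Mcl1* was higher in 5 of 5 and 8 of 9 clusters, with intervals above 0 in 5 and 7 and medians of 0.36 and 0.14. *Bax* was higher in 4 of 5 and 7 of 9, with intervals above 0 in 2 and 5. The clusters of a library share its cells' source and are not replicates.

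*Bcl2l1* went the other way in naive cells. Its pooled naive levels were alike, with a log2 ratio of 0.04 (-0.14 to 0.22) for CD301bhi over CD301blo, but within clusters it was lower in CD301bhi cells in 4 of 5, with intervals below 0 in 3. In naive cluster 1 it stood at 59.4 CPM in 286 CD301bhi and at 116 CPM in 70 CD301blo cells (log2 ratio -0.96, -1.24 to -0.68), and in cluster 2 at 62.6 and 93.6 CPM (-0.58, -0.93 to -0.22). The third of these intervals, in naive cluster 4, is wide (-3.19, -6.26 to -1.30). It rests on only 4.43 CPM in 32 CD301bhi cells, beside 40.5 CPM in 176 CD301blo cells. In the papain library, where the pooled ratio was 0.48 (0.40 to 0.56), it was higher in CD301bhi cells in 4 of 9 clusters, with intervals above 0 in 2 and below 0 in 3. The pooled comparison of the classes therefore did not carry over to cells of the same cluster for this gene.

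**Figure D4:**
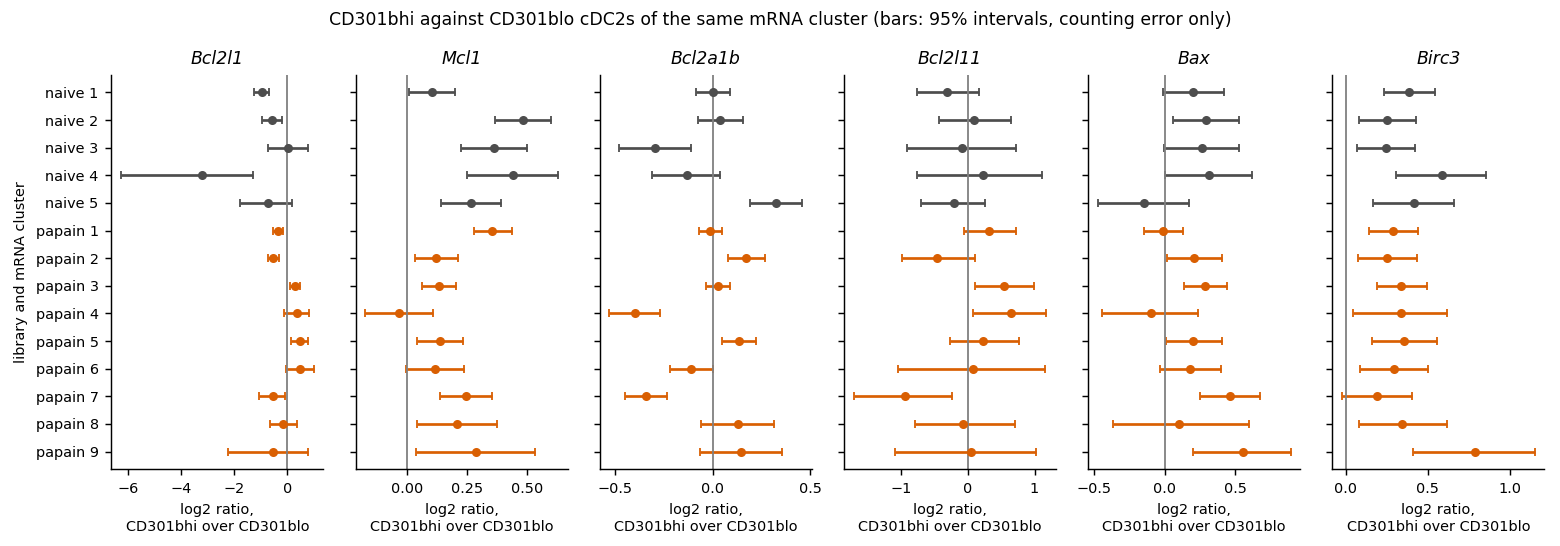
Log2 ratio of CD301bhi over CD301blo cDC2s of the same mRNA cluster for 6 members, naive clusters in grey and papain clusters in orange, with exact 95% intervals of counting error and a separate axis per gene. *Birc3* lies right of 0 in all 14 clusters, and *Bcl2l1* lies left of 0 in naive clusters 1, 2, 4 and 5.

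For members that reached 20 CPM, the 2 genes of 50 CPM or more whose log2(CPM + 1) followed them most closely over the 10 groups were found among 3288 genes. These r values are descriptions, since 5 of the 10 points share each library. *Bcl2a1b* and *Bcl2a1d* had each other (r = 0.99), and reads of these copies may not have been told apart, followed by *2310011J03Rik* (0.98) and the gene model *Gm7665* (0.98). *Bcl2a1a* had *Akr1a1* (0.99) and *S100a11* (0.98), *Mcl1* had *1700047I17Rik2* and *Cd63-ps* (both 0.98), and *Bcl2l1* had *Cetn4* and *Cope* (both 0.94). *Birc3* had *Strip2* (0.94) and *Prcp* (0.93), *Bcl2l11* had *Clec12a* and *Hnrnpu* (both 0.92), and *Bax* had *Abi1* (0.84) and *Insr* (0.84).

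The rest of the cell death machinery was read from 45 further genes, of which 42 are listed in the tables. In papain against naive cells, 2 of 32 genes of 10 CPM or more were higher by 1.5-fold and 3 lower in CD301bhi cDC2s, 3 and 2 of 34 in CD301bint, 4 and 4 of 35 in CD301blo cDC2s, 5 and 0 of 32 in cDC1s, and 3 and 2 of 30 in LCs. The medians of the list were 0.06 to 0.20. No test of the list was made.

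*Bak1*, the second pore-forming effector, had the highest median of the 5 class log2 ratios (0.76, from 0.39 in CD301bhi cDC2s to 0.98 in LCs). In LCs it stood at 35.2 CPM (naive) and 69.4 CPM (papain). It was followed by *Vdac1*, a channel of the outer mitochondrial membrane (0.66, 0.15 to 0.79), *Fadd*, the adaptor of death receptors (0.59, 0.25 to 1.11), and *Bad*, a BH3-only gene (0.49, -0.04 to 0.95). *Bak1* was thus above 0 in every class, as were *Vdac1* and *Fadd*.

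*Pmaip1*, which encodes the BH3-only protein NOXA that binds MCL-1 and A1, was lower in the papain library in 4 classes. It stood at 586, 537 and 539 CPM in naive and at 262, 213 and 287 CPM in papain CD301bhi, CD301bint and CD301blo cDC2s. In LCs it stood at 395 and 214 CPM, and in cDC1s at 181 and 179 CPM. The log2 ratio was -1.16 (-1.21 to -1.12), -1.33 (-1.39 to -1.28), -0.91 (-0.96 to -0.85) and -0.88 (-0.96 to -0.81) in cDC2s and LCs, and -0.02 (-0.16 to 0.12) in cDC1s. *Pmaip1* and *Bcl2l1* thus had their ratios furthest from 0 in the same class pair, CD301bhi and CD301bint cDC2s, and near 0 in cDC1s. *Tnfrsf1a*, a receptor of tumour necrosis factor, was lower in the 3 cDC2 classes (-0.73, -1.07 and -1.0). The survivin gene *Birc5* reached 10 CPM in 1 class, through its naive group alone (12.8 and 1.27 CPM in CD301blo cDC2s), as did the kinase gene *Pim2* through its papain group (8.43 and 10.4 CPM in cDC1s).

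**Figure D5:**
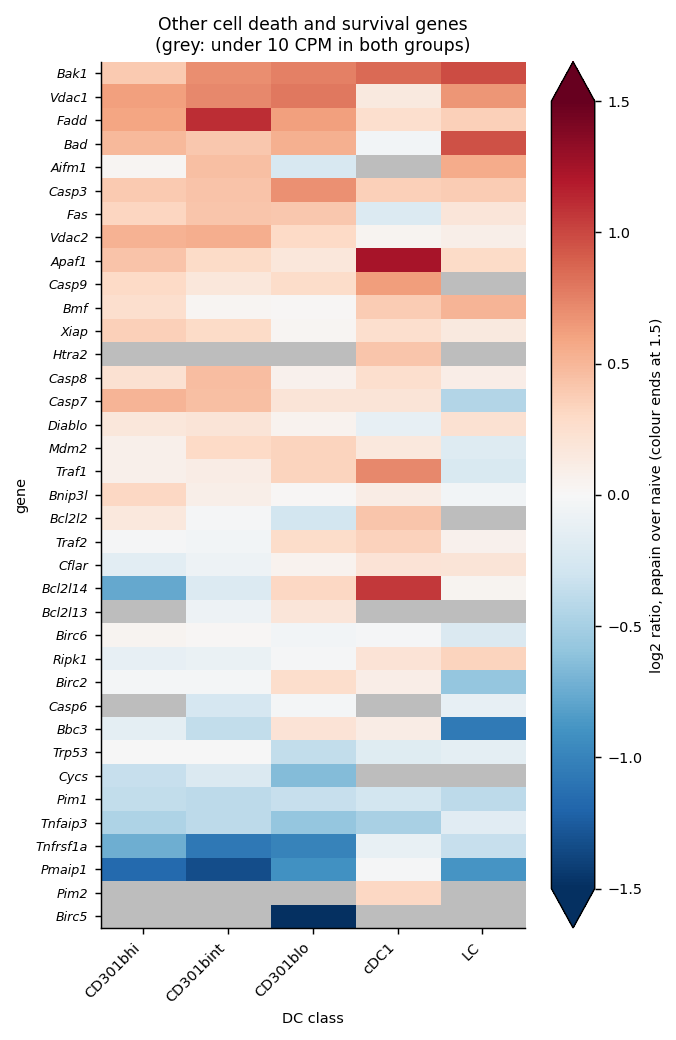
Log2 ratio of papain over naive (colour) for the 37 other cell death and survival genes that reached 10 CPM in 1 class or more, ordered by the median of the 5 classes, which includes classes under that level. Grey cells were under 10 CPM in both libraries. *Bak1* is at the top, with the largest ratio in LCs, and *Pmaip1* is blue in every class but cDC1s, where its ratio was -0.02.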

How the data were processed

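CITEseq libraries of sorted DCs from naive and papain-immunized mice were used, 1 each. Per the submitters' processing notes, reads were processed with Cell Ranger 3.0.1 against mm10 and with Partek. The authors deposited log2 values of CPM plus 1 for each gene and cell, and a number of expressed genes per cell in counts. In this work, each cell's UMIs were recovered from the step between its CPM values, which is the worth of 1 UMI (100% of values up to 50 UMIs were whole within 0.02), and the cell's total was taken as 1000000 over that step. Tables of antibody tags were not used here beyond the deposited class. The 429 naive and 290 papain cells without a class entered no comparison. No doublet caller was run and no cell was removed in the values reported.

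UMIs were summed over each class. Ratios used no pseudocount, with a gene at 0 UMIs set to 3. Intervals were exact (Poisson for CPM, conditional binomial for ratios, 95%). Thinned shares are expected values at the 10th percentile of UMIs over cells with a class, with cells below that depth left out. Ratios, intervals and thinning were checked on simulated counts. Members and gene lists were chosen with earlier results of these data known. Of the other cell death genes of 10 CPM or more in a class, those named were the 4 at the top and the 4 at the bottom by median of the class ratios. Alternatives covered scaling, pseudocount, low values, fold, cell filters and the mean over cells. Leaving out naive cluster 7 was added after seeing the data. Promoter windows came from RefSeq GRCm38.p6, whose primary assembly is that of mm10, without the 50 bases after each start. All 10 members matched. Python 3.11.15, scipy 1.17.1, numpy 2.4.6, pandas 2.3.3, Biopython 1.88 and matplotlib 3.10.9 were used.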

Additional observations from a re-analysis of the deposited data

Results flagged for a closer look

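Among the members, *Bcl2l11* and *Bax* differed in direction between classes under papain against naive, each with counting intervals on opposite sides of 0. *Bcl2l11* had a log2 ratio of 0.69 in cDC1s and -0.37 in CD301bint cDC2s. *Bax* had 0.40 in CD301bhi cDC2s and -0.30 in LCs. With 1 library per condition the difference between classes was not tested.

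Cells without a class, which no comparison used, held *Bcl2* at 82.7 CPM (naive, 237 cells) and 149.7 CPM (papain, 241 cells) where they carried a *Cd3e* or *Trac* UMI. Without such a UMI they held it at 4.01 CPM (192 cells) and 19.5 CPM (49 cells).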

How the results depend on the processing

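No paired analysis was possible because each condition has 1 library and no replicate is numbered in the labels, so no replicate could be left out either. Over the 5 classes, 13 pairs of member and class were higher by 1.5-fold and 1 lower. The count of higher pairs was 12 to 15 under every alternative but the stricter fold, where 2 pairs reached 2-fold. The lower pair, *Bcl2* in CD301blo cDC2s, was lost (0 pairs) without cells holding a *Cd3e* or *Trac* UMI, for genes of at least 50 CPM and without naive cluster 7. Without cells holding a *Cd3e* or *Trac* UMI its naive level was 9.76 CPM, just under the 10 CPM mark, and its papain level 1.44 CPM. With no filter on low values 7 pairs were lower. Between classes, no member was past 1.5-fold in both libraries, except that with the mean over cells 1 was lower, *Bcl2l11* in LCs against cDC2s. The counts of levels of at least 10 CPM (81 of 100), of pairs with a higher thinned share in papain cells (32 of 50) and of other cell death genes (17 higher and 11 lower) stayed within 1.5 times of these values under the alternatives tried for each. Of 990 single levels and ratios under the alternatives, 878 lay inside the counting interval of the main value, 112 lay outside it, and no counted ratio changed sign. The mean over cells gave 59 of the 112. Precision is limited by 235 papain cDC1s and, for *Bcl2* and *Bid*, by 5 to 145 UMIs per group.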
